A study of Mus musculus with 27 samples.

Results

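The proteasome genes described here are the 45 genes of the mRNA table whose symbols begin with Psma, Psmb, Psmc, Psmd, Psme, Psmf or Psmg, apart from Psmb8 and Psmb9. They were taken by symbol alone, out of 8987 genes in the table. Their levels were measured by sequencing poly-A RNA of the left ventricle of adult FVB mice in 11 libraries, 1 per heart, collected 7 days after surgery. The values are RPKM, reads per kilobase of transcript scaled to the mapped reads of the library, so levels can be compared between genes. WT sham (4 hearts) and WT TAC (3 hearts) are wild-type mice with a sham operation or with transverse aortic constriction, a narrowing of the aorta that loads the ventricle with pressure. The caPI3Kalpha sham (2 hearts) and caPI3Kalpha TAC (2 hearts) mice had the same operations and carry phosphoinositide 3-kinase alpha, a growth-signalling kinase, in a form that is always active. The labels name neither the promoter that drives caPI3Kalpha nor the age or sex of the mice. Pik3ca, the gene of its catalytic subunit, was at 5.3 to 8.9 RPKM in the 7 WT libraries and at 101.3 to 195 RPKM in the 4 caPI3Kalpha libraries, which matches the genotype labels.

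The proteasome is the protease that degrades proteins tagged with ubiquitin. Its 20S core is a barrel of outer alpha rings, which form a gate, and inner beta rings, which hold the active sites. The 19S cap binds ubiquitinated proteins, removes the ubiquitin and unfolds the substrate with a ring of ATPases, while other caps such as PA28 and PA200 open the core without ubiquitin. Dedicated chaperones build the core and the cap and are not part of the finished particle. In heart muscle the proteasome turns over sarcomere and signalling proteins, and a growing muscle cell has to balance protein synthesis against this breakdown.

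Of the 45 genes, 7 encode 20S alpha subunits, 8 encode 20S beta subunits, 6 encode 19S ATPases, 11 encode other 19S subunits, 7 encode assembly chaperones and 5 encode activators or an inhibitor. The last, Psmc3ip, has the prefix but encodes a partner of a meiotic recombination protein, not a subunit. Psma8, Psmb11 and Psme2b, which the same prefixes would take, are not in the table, which lists genes that reach 3 RPKM in at least 1 library. Psme2b is a copy of Psme2, and how reads shared by the pair were counted is not given in the sources used here, so the level of Psme2 is uncertain.

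The 11 libraries formed 2 sets that no label names. The first principal component of all genes other than these 45, with 51.9% of the variance, was used to divide them by its sign. All 4 caPI3Kalpha libraries lie in the first set with WT sham 6 and WT TAC 1. The 3 other WT sham libraries (7, 13 and 15) and WT TAC 17 and 19 form the second. Between libraries, Spearman's rho across genes was 0.931 to 0.989 within a set and 0.848 to 0.913 across sets. Both caPI3Kalpha groups lie in the first set, so their comparison with each other does not cross the sets. Genotype and set cannot be told apart except through WT sham 6 and WT TAC 1. Several results that cross the sets are given with and without that split, and the others are given without it. Each library is numbered as a separate animal, and for WT sham 15 the title was used because another label gives a different number.

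The windows before the start of 4 of these genes are shown because results below name these genes. Whether the motifs bear on their levels was not tested. Psmd8 came closest to the threshold under pressure load in WT hearts, Psmd8 and Psmc1 had the lowest p-values in caPI3Kalpha hearts, and Psme1 and Psme2 encode partners in one complex whose fitted changes in WT hearts had opposite signs. Each is the stretch of 250 bases before the RefSeq transcription start, on the gene's own strand, from mouse build GRCm38.p6. Capitals mark matches on either strand to CCAAT, the CCAAT box bound by NF-Y, or GGGCGG, the GC box bound by Sp1-type factors.
Psmd8 (chr7:29180674-29180923, minus strand): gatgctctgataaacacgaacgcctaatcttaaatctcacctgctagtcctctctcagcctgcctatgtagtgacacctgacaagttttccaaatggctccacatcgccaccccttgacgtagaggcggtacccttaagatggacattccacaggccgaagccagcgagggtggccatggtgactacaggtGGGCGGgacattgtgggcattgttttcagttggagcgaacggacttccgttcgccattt
Psmc1 (chr12:100109952-100110201, plus strand): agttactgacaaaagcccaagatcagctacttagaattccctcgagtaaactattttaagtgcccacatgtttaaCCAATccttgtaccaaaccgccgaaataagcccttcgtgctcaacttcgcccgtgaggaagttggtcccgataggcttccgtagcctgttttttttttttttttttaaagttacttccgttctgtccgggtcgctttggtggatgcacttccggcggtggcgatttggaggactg
Psme1 (chr14:55578244-55578493, plus strand): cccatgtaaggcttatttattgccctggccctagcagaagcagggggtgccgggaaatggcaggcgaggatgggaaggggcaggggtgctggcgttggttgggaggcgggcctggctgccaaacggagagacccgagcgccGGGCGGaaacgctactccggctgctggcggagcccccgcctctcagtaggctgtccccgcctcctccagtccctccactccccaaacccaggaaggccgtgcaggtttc
Psme2 (chr14:55591102-55591351, minus strand, the first of its 2 listed starts): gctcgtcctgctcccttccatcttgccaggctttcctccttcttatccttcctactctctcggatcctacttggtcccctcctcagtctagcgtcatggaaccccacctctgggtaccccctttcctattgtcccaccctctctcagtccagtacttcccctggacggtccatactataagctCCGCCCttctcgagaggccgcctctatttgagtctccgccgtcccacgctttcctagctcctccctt
The GC box of Psmd8 spans bases 59 to 54 before the start, that of Psme1 bases 109 to 104 and that of Psme2 bases 67 to 62, where it lies on the opposite strand. The only marked match of Psmc1 is a CCAAT box at bases 175 to 171.

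RefSeq held a window for 38 of the 45 genes and for 27025 genes in all. In this paragraph all genes means these 27025, expressed in the ventricle or not, rather than the 8987 of the mRNA table. A GC box was found before 21 of the 38 (55.3%) and before 35.4% of all genes. A CCAAT box was found before 13 (34.2%), against 37.5% of all genes. The core of the antioxidant response element, TGACNNNGC, which NRF1 and NRF2 bind and through which subunit genes are known to be induced, was found before 5 (13.2%, against 11.5%), namely Psmb5, Psmb6, Psmc6, Psmd12 and Psmd9. The interferon response core GAAANNGAA was found before 3 (7.89%, against 8.18%), namely Psmb3, Psmd4 and Psmd9. These are matches of letters on either strand in a window of this length, not measured binding, and matches of different motifs may share bases.

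The proteasome genes were highly expressed in the ventricle. Their median level, taken over means of the 11 libraries, was 28.0 RPKM, above 87.1% of the listed genes, whose median was 6.95 RPKM, and 38 of the 45 lay above that median. Levels ran from 2.53 RPKM for the chaperone Psmd9 to 71.9 RPKM for Psmb7, the trypsin-like active subunit, which is a 28.4-fold range. Subunits that are present in equal number in the particle did not have equal mRNA levels. Alpha subunits ran from Psma5 at 11.2 RPKM to Psma6 at 57.0 RPKM, and standard beta subunits from Psmb5 at 19.5 RPKM to Psmb7. The inducible Psmb10, which can replace a standard beta subunit, was at 15.5 RPKM. The 19S genes lay closer together: ATPases ran from Psmc4 at 21.0 to Psmc3 at 44.6 RPKM, a 2.12-fold range, and the other 19S subunits from the deubiquitinase Psmd14 at 17.4 to the ubiquitin-receptor scaffold Psmd2 at 35.2 RPKM, a 2.03-fold range. Chaperones were lowest, with a median of 5.24 RPKM. Psme4, the single-chain activator PA200, had a mean of 56.1 RPKM over the 11 libraries, below Psmb7 and Psma6 alone. That rank depends on the library set, since Psme4 was at 37.6 to 51.3 RPKM in the first and at 66.9 to 73.4 RPKM in the second. In the first set Psmb4, for one, was at 50.3 to 57.8 RPKM.

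**Figure D1:**
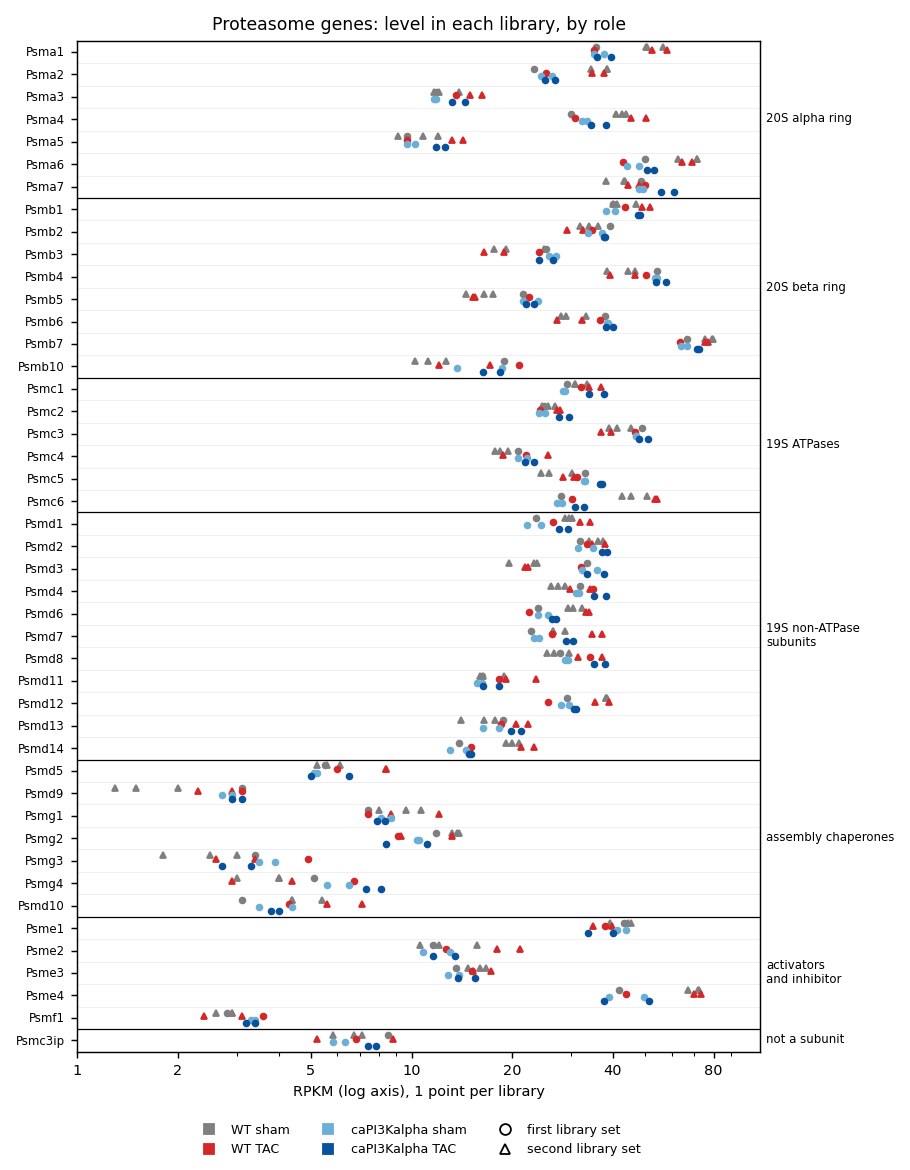
Level of each of the 45 genes in each of the 11 libraries, in RPKM on a log axis, in blocks by role. Colour gives the group, and circles and triangles give the first and second library set; chaperones sit mostly below 12 RPKM and 20S and 19S subunits mostly between 10 and 80 RPKM.

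Levels varied little between hearts. The highest library exceeded the lowest by a median of 1.59-fold over the 45 genes, against 1.95-fold over all genes, and the ratio was under 1.5 for 14 of 45 (31.1%) and for 15.4% of all genes. Psmd2 varied least, at 1.22-fold. Psmg4, a chaperone of the alpha ring, varied most, at 2.79-fold. These ratios depend on level, since a value given to 1 decimal is coarse for the lowest genes.

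Some of the genes split by library set, in shares near those of all genes. For 10 genes every library of the second set was above every library of the first (18.2% of all genes), and for 7 every one was below (14.4% of all genes), while 28 overlapped. Those above were Psma1, Psma2, Psma4, Psma6, Psmb7, Psmc6, Psmd6, Psmd12, Psmd14 and Psme4, and those below were Psmb4, Psmb5, Psmb6, Psmc3, Psmc5, Psmd3 and Psmg4. Psmc6 was at 27.9, 30.1, 28.2, 27.3, 32.8 and 30.8 RPKM in WT sham 6, WT TAC 1, caPI3Kalpha sham 5 and 8 and caPI3Kalpha TAC 11 and 211. In WT sham 7, 13 and 15 and WT TAC 17 and 19 it was at 45.4, 42.6, 50.5, 54.0 and 53.6 RPKM. The gap between the sets, a ratio of means of 1.67, was wider than any gap between sham and TAC within a set for this ATPase. Psmd3, a subunit of the 19S lid, ran the other way, with a ratio of 0.649, and Psmb5, the chymotrypsin-like active subunit, had a ratio of 0.706.

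**Figure D2:**
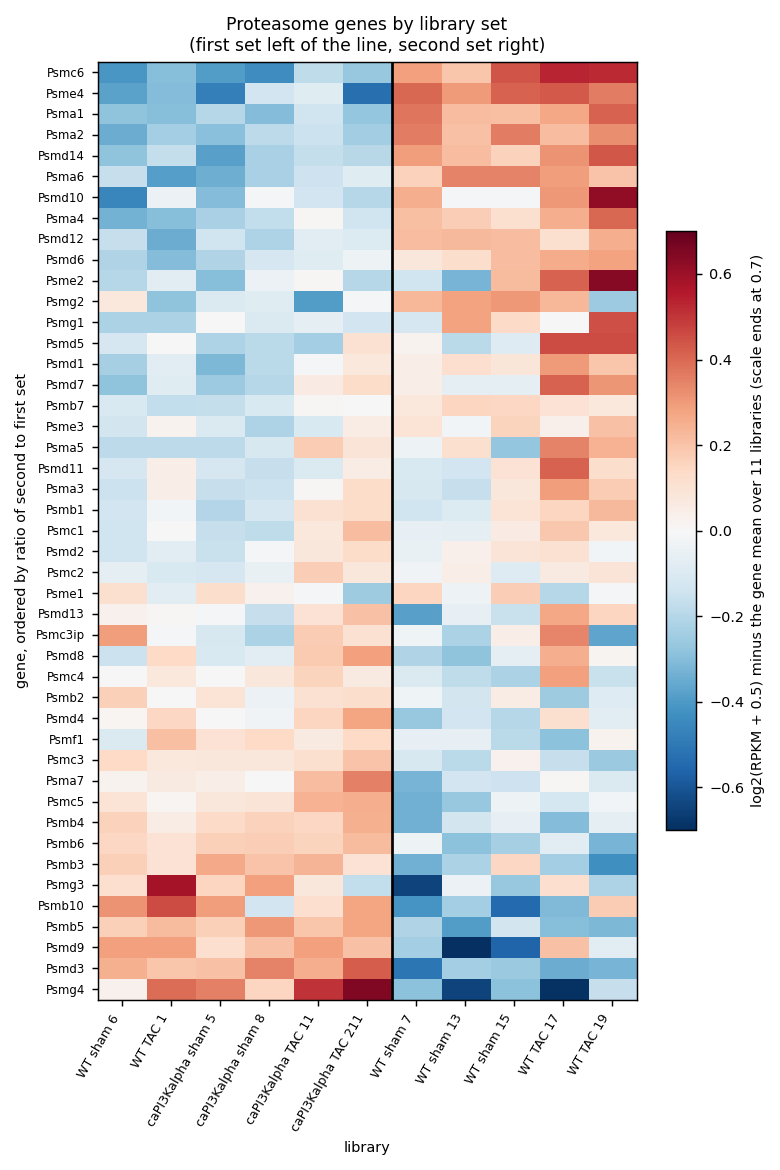
Each cell is log2(RPKM + 0.5) of 1 gene in 1 library minus that gene's mean over 11 libraries, with red above and blue below the mean and the colour scale ending at 0.7. Genes are ordered by the ratio of the second set to the first; the top and bottom rows change colour at the line between the sets and the middle rows do not.

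Pressure load in WT hearts moved none of the 45 genes past the threshold. The test was limma on log2(RPKM + 0.5) in one model of all 4 groups, with a Benjamini-Hochberg adjusted p under 0.05 over all 8987 genes. It called 0 of 45, where it called 16.5% of all genes. At an unadjusted p under 0.05 there were 6 genes, all higher in TAC, against 31.4% of all genes. The fitted log2 change was positive for 32 of 45 (71.1%), and for 71.8% of all genes. The median was 0.09, against 0.17 over all genes. The median RPKM of the listed genes was 6.4 to 6.7 in WT sham and 7.5 to 7.7 in WT TAC libraries. With that shift taken out, 19 (quantile normalization) or 15 (centring on library medians) of the 45 were positive, against 45.7% and 47.2% of all genes, and their medians were -0.054 and -0.10. The genes with an unadjusted p under 0.05 were then 2 and 5, all lower in TAC, where 2202 and 2368 of all genes had one. The 45 intervals at 95%, on the scale of log2(RPKM + 0.5), ran from -0.65 for Psmg2 to 0.94 for Psmd9, a gene of low level whose change this scale understates.

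Psmd8, a subunit of the 19S lid, came closest to the threshold. It was at 27.8, 26.7, 25.4 and 29.6 RPKM in WT sham 6, 7, 13 and 15, and at 34.2, 37.0 and 31.4 RPKM in WT TAC 1, 17 and 19. All TAC hearts were above all sham hearts, in both library sets. It was the only one of the 45 genes with WT TAC above WT sham without overlap (18.9% of all genes), and 0 were below without overlap (4.65% of all genes). The means were 27.4 ± 1.78 (SD, n = 4) and 34.2 ± 2.80 RPKM (SD, n = 3), and the log2 change was 0.32 (SE 0.10), with an adjusted p of 0.058 in limma. Under quantile normalization or centring the change was 0.22 or 0.13 and the groups overlapped.

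The other 5 genes with an unadjusted p under 0.05 had values that overlapped between WT sham and WT TAC. Psmd5, a chaperone of the 19S base that also acts as an inhibitor of the particle, was at 5.5, 6.1, 5.2 and 5.6 RPKM in WT sham 6, 7, 13 and 15 and at 6.0, 8.4 and 8.4 RPKM in WT TAC 1, 17 and 19. Psmd7, the partner of the deubiquitinase Psmd14 in the lid, was at 22.8, 28.7, 26.5 and 26.5 RPKM in sham and at 26.2, 37.2 and 34.6 RPKM in TAC, in the same order. In both genes WT TAC 1 lay among the sham hearts and the other two TAC hearts lay above all of them. Psmd5 had a log2 change of 0.40 (SE 0.14) and Psmd7 of 0.31 (SE 0.13), with limma adjusted p-values of 0.080 and 0.144. Psma3, Psmd13 and Psme2 changed by 0.26, 0.28 and 0.44 on the log2 scale, with adjusted p-values of 0.128, 0.144 and 0.129 in limma.

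A term for the library set in the model, an alternative listed with the others, took the count in WT TAC from 0 to 9 genes, all higher, against 33.1% of all genes higher, and 0 lower, against 9.01% of all genes lower. The 9 were Psma3, Psmb1, Psmd4, Psmd5, Psmd7, Psmd8, Psmd10, Psmd11 and Psme2, with log2 changes between 0.19 for Psmd4 and 0.46 for Psme2. Psmd4 is the ubiquitin receptor of the cap, and Psmd10, also called gankyrin, is a chaperone of the base. Within the second set alone, 5 genes passed (31.6% of all genes): Psmd5, Psmd7, Psmd8, Psmd13 and Psme2, by 0.32 to 0.61 on the log2 scale. Within the first set there is 1 heart of each WT group, and 43 of the 45 genes differed by under 1.3-fold between WT TAC 1 and WT sham 6, as did 6202 of all genes. With the set term and in the second set, the share of the 45 genes that passed was below the share of all genes that did.

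**Figure D3:**
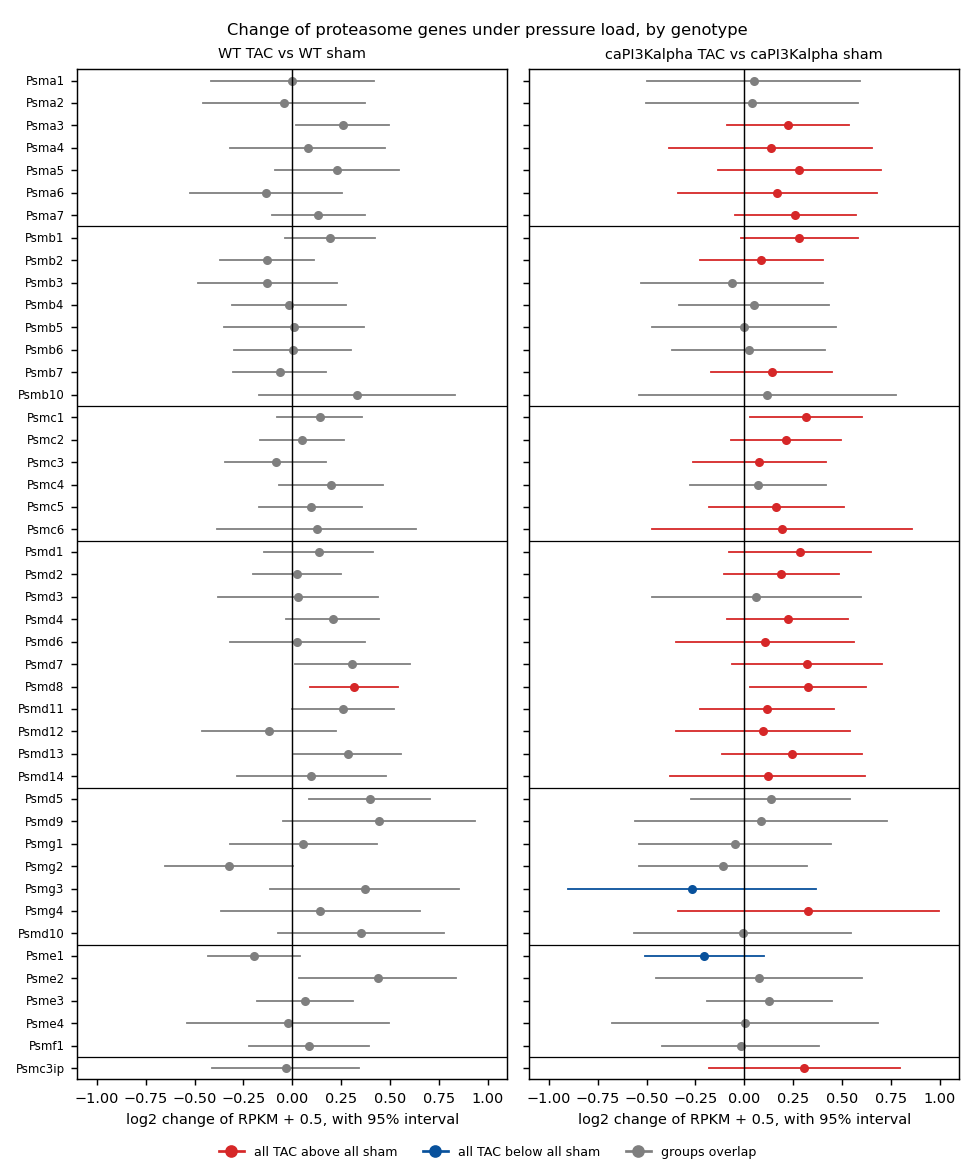
Log2 change of RPKM + 0.5 with its 95% interval from limma for each of the 45 genes, for WT TAC against WT sham (left) and caPI3Kalpha TAC against caPI3Kalpha sham (right). Red marks genes whose TAC libraries all lie above all sham libraries, blue the reverse; there is 1 red gene on the left, and there are 25 red and 2 blue genes on the right.

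In caPI3Kalpha hearts, both TAC libraries were above both sham libraries for 25 of the 45 genes (55.6%), against 22.4% of all genes. They were below for 2, Psme1 and Psmg3, against 20% of all genes. The fitted change was positive for 37 of 45 (82.2%) and for 51.6% of all genes, with a median log2 change of 0.12 against 0.01. The changes were small and none passed: limma called 0 of 45 and 0% of all genes, and the lowest adjusted p among the 45 was 0.855. At an unadjusted p under 0.05 there were 2 genes, Psmd8 and Psmc1, against 5.05% of all genes. The spread in this model comes from all 4 groups and includes the gap between library sets within the WT groups. With the set term 8 of the 45 had an unadjusted p under 0.05 in limma, all higher, and 1224 of all genes had one. Then 0 of the 45 passed, against 93 of all genes, and the lowest adjusted p among the 45 was 0.113 (Psmc1). All 4 caPI3Kalpha libraries come from the first set. The summed fibroblast and atrial markers, given below, were higher in both TAC than in both sham hearts of this genotype, and their part in the count was not tested. Scaling the libraries by quantile normalization or by their medians, both added to this count after the data were seen, left 22 genes above under each, against 21.0% and 21.7% of all genes.

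Psmd8 was at 28.7 and 29.4 RPKM in caPI3Kalpha sham 5 and 8 and at 35.2 and 37.9 RPKM in caPI3Kalpha TAC 11 and 211. The log2 change was 0.33 (SE 0.13), close to the 0.32 of WT hearts. Psmc1, an ATPase of the base, was at 28.8 and 28.4 RPKM in caPI3Kalpha sham and at 33.9 and 37.5 RPKM in caPI3Kalpha TAC. In WT hearts Psmc1 was at 29.2, 30.9, 30.8 and 33.5 RPKM after sham and at 32.2, 36.8 and 34.0 RPKM after TAC, where the groups overlapped. Its log2 change was 0.31 (SE 0.13) in caPI3Kalpha hearts and 0.14 (SE 0.10) in WT hearts. Psmd8 thus stood apart between sham and TAC in both genotypes, and Psmc1 in caPI3Kalpha hearts.

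The genes with both caPI3Kalpha TAC libraries above both sham libraries lay mostly in the 19S cap and the alpha ring. Over all genes the share above without overlap was 22.4%, and counts by role were not taken under other scalings. Of the 11 non-ATPase 19S subunits, all 11 had a positive change and 10 were without overlap, the exception being Psmd3. Of the 6 ATPases, 6 were positive and 5 were without overlap, the exception being Psmc4. Of the 7 alpha subunits, 7 were positive and 5 were without overlap, the exceptions being Psma1 and Psma2. Among the 8 beta subunits 6 were positive and 3, Psmb1, Psmb2 and Psmb7, were without overlap. Of the rest, 3 of 7 chaperones and 3 of 5 activator or inhibitor genes were positive, and Psmg4 alone among them was without overlap upward. Psmc3ip, which is no subunit, was also above.

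The same can be seen in the summed levels of the 32 subunit genes of the 20S core and 19S cap. The sum was 958.9 and 972 RPKM in caPI3Kalpha sham 5 and 8 and 1060.1 and 1086.3 RPKM in caPI3Kalpha TAC 11 and 211. It was 970.2, 997.4, 1013.5 and 1058 RPKM in WT sham 6, 7, 13 and 15, and 976.3, 1102.7 and 1087.1 RPKM in WT TAC 1, 17 and 19. In WT hearts the groups overlapped through WT TAC 1, which lay close to WT sham 6, its counterpart in the first set. Group means were 965 ± 9.26 and 1073 ± 18.5 RPKM (SD, n = 2 each) in caPI3Kalpha hearts and 1010 ± 36.8 (SD, n = 4) and 1055 ± 68.9 RPKM (SD, n = 3) in WT hearts. With 2 hearts a group these sums were not tested.

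**Figure D4:**
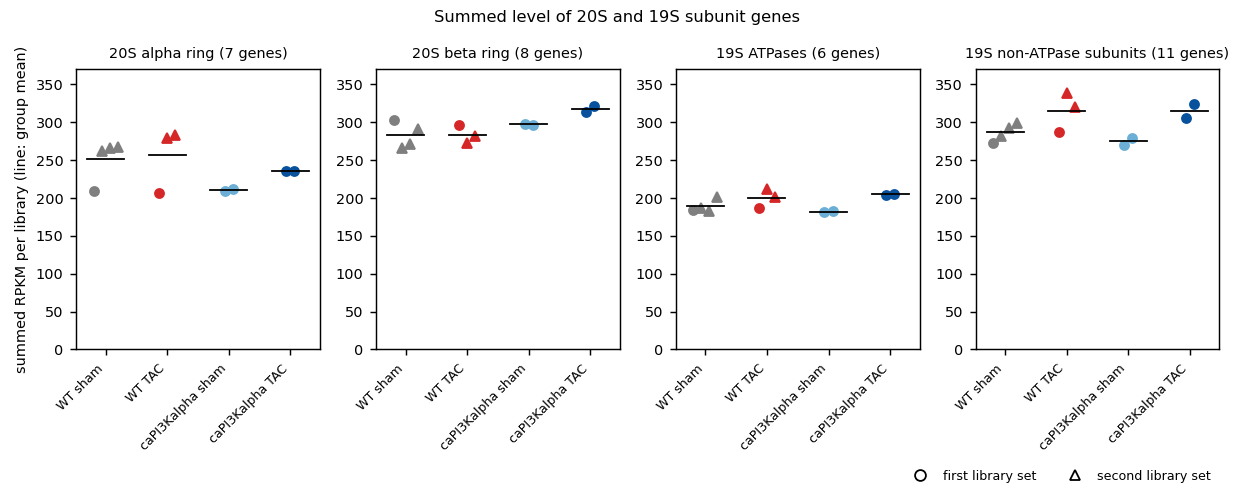
Summed RPKM of the alpha ring, beta ring, 19S ATPase and other 19S genes in each library, with the axis from 0, group means as lines and library sets as circles and triangles. In caPI3Kalpha hearts both TAC points lie above both sham points in all 4 panels, and in WT hearts the alpha ring splits by library set, at 207 to 208.9 RPKM in the first and 262.2 to 282.7 RPKM in the second.

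Whether the response to load differed between genotypes was tested as the interaction of genotype and operation. It called 0 of 45 genes, against 0.312% of all genes, and 0 of 45 had an unadjusted p under 0.05, against 10.3% of all genes. With the set term it called 0 of the 45 and 607 of all genes. Then 1 of the 45 had an unadjusted p under 0.05, and 2245 of all genes had one. The fitted differences ran from -0.64 for Psmg3, a chaperone of the core, to 0.34 for Psmc3ip, and 39 of the 45 intervals lay within 1 log2 unit. They were positive for 31 of 45 (68.9%) and for 30.3% of all genes. Under quantile normalization and centring they were positive for 37 and 39 of the 45, and for 52.4% and 52.0% of all genes. For Psmd8 the difference between the genotypes' responses was 0.01, with an interval from -0.36 to 0.38. No single gene of the 45 was thus shown to respond differently in the genotypes, and the counts of 25 and 1 genes without overlap were not tested against each other.

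Without load, no proteasome gene passed between the genotypes. Limma called 0 of 45 genes between caPI3Kalpha sham and WT sham, and 0.0111% of all genes. At an unadjusted p under 0.05 there were 2 genes, Psma6 lower and Psmd3 higher, against 13.3% of all genes. Groups were without overlap for 8 genes: Psmb3, Psmb6, Psmf1, Psmg3 and Psmg4 were above WT sham (9.42% of all genes) and Psma6, Psmc1 and Psmg2 below it (10.1% of all genes). Psma6 was at 50, 62.7, 71.5 and 71.4 RPKM in WT sham 6, 7, 13 and 15 and at 44.2 and 47.8 RPKM in caPI3Kalpha sham 5 and 8. WT sham 6, from the same library set as the caPI3Kalpha hearts, was the nearest of the WT sham hearts to them. The mean of the pair was within 1.3-fold of WT sham 6 for 44 of the 45 genes, and for 8692 of the 8987 genes in the table. Without WT sham 6 the comparison crosses the sets throughout, and 7 genes passed (20.3% of all genes): Psma2, Psma6, Psmc6, Psmd14 and Psme4 lower and Psmd3 and Psmd9 higher.

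After load, limma called 0 of 45 genes between caPI3Kalpha TAC and WT TAC, and 6.52% of all genes. At an unadjusted p under 0.05 there were 3, Psma7, Psmd3 and Psmg4, all higher in caPI3Kalpha hearts, against 32.8% of all genes. The difference was positive for 22 of 45 (35.3% of all genes), and for 28 and 33 under quantile normalization and centring (48.0% and 48.7%), where 10 and 14 of the 45 had an unadjusted p under 0.05, all higher, and 2389 and 2426 of all genes had one. Groups were without overlap for 9 genes above WT TAC (Psma7, Psmb2, Psmb4, Psmb6, Psmc3, Psmc5, Psmd3, Psmd4 and Psmg4; 11.5% of all genes) and 1 below (Psmd10; 36.2% of all genes). Of these, Psmb4, Psmb6, Psmc3, Psmc5, Psmd3 and Psmg4 are also among the genes that are higher in the first library set in every library. With the set term 0 of the 45 passed, where 809 of all genes did. Psma7 was at 49.8, 47.9 and 44.4 RPKM in WT TAC 1, 17 and 19 and at 55.5 and 61.1 RPKM in caPI3Kalpha TAC 11 and 211, and the 9 libraries other than these last lay between 38.0 and 49.8 RPKM. It is an alpha subunit, and its log2 difference was 0.30 (SE 0.13), with a limma adjusted p of 0.138. Without WT TAC 1, again a comparison across the sets, 9 genes passed (36.4% of all genes), 3 higher (Psmb5, Psmd3 and Psmg4) and 6 lower (Psma1, Psmc6, Psmd5, Psmd10, Psmd14 and Psme2).

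No catalytic subunit of the standard core passed under load in either genotype. Psmb5 was at 21.6, 16.5, 14.5 and 17.5 RPKM in WT sham 6, 7, 13 and 15, at 22.4, 15.5 and 15.3 RPKM in WT TAC 1, 17 and 19, at 21.6 and 23.8 RPKM in caPI3Kalpha sham and at 22.0 and 23.3 RPKM in caPI3Kalpha TAC. Its log2 change was 0.01 (SE 0.16) in WT and -0.00 (SE 0.21) in caPI3Kalpha hearts, and its levels split by library set. Psmb6, the caspase-like subunit, changed by 0.00 (SE 0.14) and 0.02 (SE 0.18), and Psmb7 by -0.06 (SE 0.11) and 0.14 (SE 0.14). The intervals for WT hearts ran from -0.35 to 0.37 for Psmb5, from -0.30 to 0.30 for Psmb6 and from -0.30 to 0.17 for Psmb7, and each includes no change.

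Inflammatory signals are known to replace these active subunits with Psmb8, Psmb9 and Psmb10 and to raise PA28, whose subunits are Psme1 and Psme2. Psme1 was at 43.3, 44.5, 39.1 and 45.2 RPKM in WT sham 6, 7, 13 and 15, at 37.9, 34.8 and 39.8 RPKM in WT TAC 1, 17 and 19, at 43.7 and 41.0 RPKM in caPI3Kalpha sham and at 39.9 and 33.7 RPKM in caPI3Kalpha TAC. The TAC hearts lay low in both genotypes, with overlap in WT through WT sham 13 and WT TAC 19. The log2 changes were -0.20 (SE 0.11) and -0.20 (SE 0.14), and neither passed; centring on library medians, which made it -0.39 in WT, took the limma adjusted p there to 0.0447. Psme2 was at 11.6, 12.1, 10.6 and 15.7 RPKM in WT sham and at 12.7, 18.0 and 21.1 RPKM in WT TAC, in the same order. WT TAC 17 and 19 were above all sham hearts and WT TAC 1 was among them. In caPI3Kalpha hearts Psme2 was at 10.8 and 13.0 RPKM after sham and at 13.5 and 11.6 RPKM after TAC.

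Psme2 mRNA was therefore a larger share of Psme1 mRNA in 2 WT TAC hearts. It was 26.8, 27.2, 27.1 and 34.7% of Psme1 in WT sham 6, 7, 13 and 15 and 33.5, 51.7 and 53.0% in WT TAC 1, 17 and 19. In caPI3Kalpha hearts it was 24.7 and 31.7% after sham and 33.8 and 34.4% after TAC. In the particle the pair assembles into one ring. The other activators did not pass in any comparison: Psme3, the nuclear PA28 gamma, changed by 0.06 (SE 0.11) in WT and 0.13 (SE 0.15) in caPI3Kalpha hearts, and Psme4 by -0.02 (SE 0.24) and 0.00 (SE 0.31). Psmf1, the inhibitor PI31, changed by 0.09 (SE 0.14) and -0.02 (SE 0.18).

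The inducible subunits outside the prefix rule gave 1 call. Psmb8 was at 4.1, 2.7, 4.5 and 3.2 RPKM in WT sham 6, 7, 13 and 15 and at 4.4, 7.3 and 10.2 RPKM in WT TAC 1, 17 and 19. Only WT TAC 17 and 19 stood above the sham hearts. It rose by 0.87 (SE 0.25; adjusted p 0.0401, limma) and passed in the second set, but with any 1 of 8 libraries left out in turn the adjusted p went over 0.05, the largest being 0.144 without WT TAC 19. Psmb9 changed by 0.23 (SE 0.26) and Psmb10 by 0.33 (SE 0.23), and neither passed. Psmb10 was at 18.9, 11.2, 12.7 and 10.2 RPKM in WT sham and at 20.9, 12.1 and 17.1 RPKM in WT TAC. Of 10 genes of the inducible proteasome and antigen presentation, 4 rose in WT TAC, where 16.5% of all genes were called: Psmb8, the peptide transporter Tap1, B2m and H2-K1, the last by 0.85 (SE 0.20). B2m lost its call with any 1 of 4 WT libraries left out in turn, with adjusted p-values up to 0.102 in limma. Tap1 and H2-K1 kept theirs throughout. With the set term 8 of the 10 were called higher in WT TAC, against 33.1% of all genes.

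**Figure D5:**
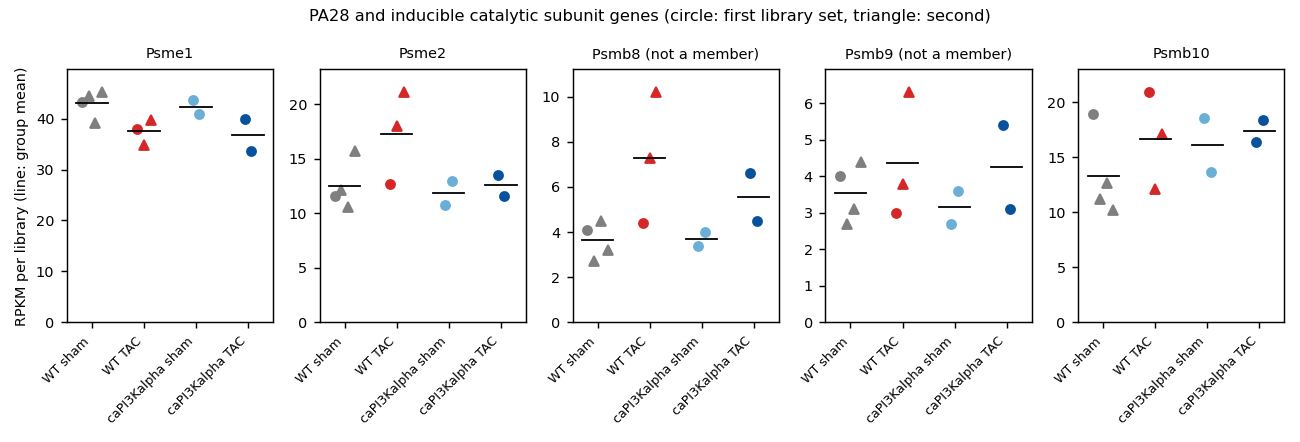
RPKM of Psme1, Psme2, Psmb8, Psmb9 and Psmb10 in each library, with each axis from 0, group means as lines, and circles and triangles for the library sets. Psme2 and Psmb8 are highest in WT TAC 17 and 19, and the mean of Psme1 is lower after TAC in both genotypes.

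Several lists of markers of other cell types had genes called higher in WT TAC. Of 11 macrophage markers 10 rose, and their sum was 119.3 to 140.4 RPKM in WT sham and 272.1 to 326.2 RPKM in WT TAC, while it was 110.8 to 173.1 RPKM in caPI3Kalpha sham and 120.9 to 143.5 RPKM in caPI3Kalpha TAC. The highest sum was in WT TAC 1, where Psme2 and Psmb8 were lowest among the WT TAC hearts. Of 9 fibroblast markers 5 rose in WT TAC, with sums of 594.9 to 664.8 RPKM in sham and 928.2 to 1208.3 RPKM in TAC, and of 552.1 to 618.2 and 707.9 to 751.2 RPKM in the caPI3Kalpha groups. The summed level of 10 cardiomyocyte markers, which shows the labelled tissue, was 25914 to 27772 RPKM in WT sham, 21169 to 22338 RPKM in WT TAC and 25109 to 27010 RPKM in the caPI3Kalpha libraries. Of these 10 genes 1 was called higher and 1 lower in WT TAC, so the sum does not describe each of them. The summed level of 4 atrial genes, of which Nppa is also known to be induced in the loaded ventricle, was 55.9 to 118 RPKM in WT sham and 637.2 to 1220.5 RPKM in WT TAC. It was 91.6 to 152.5 RPKM in caPI3Kalpha sham and 481.2 to 653.5 RPKM in caPI3Kalpha TAC, and Nppa alone of the 4 was called in WT TAC, with a rise of 3.47 on the log2 scale (SE 0.30; adjusted p 7.0e-05, limma). All 3 listed of 8 proliferation markers rose in WT TAC, with sums of 2.2 to 3.2 RPKM in WT sham and 10 to 17.9 RPKM in WT TAC, and of 2.5 to 6.4 and 2.7 to 2.9 RPKM in the caPI3Kalpha groups. Of 8 endothelial markers 1 rose and of 6 smooth muscle and pericyte markers 2. Red cell genes reached 761.4 RPKM in 1 caPI3Kalpha TAC heart, and none of the 7 lymphocyte markers is in the table. The part of these cells in the proteasome values was not tested, and in bulk tissue fewer cells of a type and less RNA per cell cannot be told apart.

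The 4 widest ranges between libraries were those of assembly chaperones (Psmg4, Psmg3, Psmd9 and Psmd10). Of the 7 chaperones 6 had positive changes under load in WT hearts and 3 in caPI3Kalpha hearts, against 71.8% and 51.6% of all genes. In WT hearts the largest fitted rise and the largest fitted fall of all 45 genes were both chaperones. Psmd9, a chaperone of the base, was at 3.1, 2.0, 1.3 and 1.5 RPKM in WT sham 6, 7, 13 and 15 and at 3.1, 2.9 and 2.3 RPKM in WT TAC 1, 17 and 19. WT sham 6 equalled WT TAC 1, and the 3 sham hearts of the second set were below both of its TAC hearts. The log2 change was 0.45 (SE 0.22; adjusted p 0.198, limma), and without WT sham 6 it was 0.64 and passed, with an adjusted p of 0.0252. Psmg2, a chaperone of the alpha ring, was at 11.8, 13.2, 13.7 and 13.9 RPKM in sham and at 9.1, 13.2 and 9.3 RPKM in TAC, with 1 TAC heart at the level of the sham hearts. It changed by -0.32 (SE 0.15), with an adjusted p of 0.163 in limma, and by -0.51 with an adjusted p of 0.0371 after centring on library medians.

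Psmg4 stood highest in caPI3Kalpha TAC. It was at 7.3 and 8.1 RPKM in caPI3Kalpha TAC 11 and 211 and at 6.5 and 5.6 RPKM in caPI3Kalpha sham 5 and 8. The WT values were 5.1, 4.0, 3.0 and 4.0 RPKM in sham 6, 7, 13 and 15 and 6.7, 2.9 and 4.4 RPKM in TAC 1, 17 and 19. WT TAC 1 lay above both caPI3Kalpha sham hearts, and all the other WT values lay below them. The difference between caPI3Kalpha TAC and WT TAC, 0.73 on the log2 scale (SE 0.28; adjusted p 0.104, limma), was the largest of the 45 in that comparison. With the set term it was 0.32 (SE 0.21), with an adjusted p of 0.340 in limma. Psmg4 is among the genes that are lower in the second set in every library. Its partner Psmg3 was at 3.4, 1.8, 3.0 and 2.5 RPKM in WT sham, at 4.9, 3.4 and 2.6 RPKM in WT TAC, at 3.5 and 3.9 RPKM in caPI3Kalpha sham and at 3.3 and 2.7 RPKM in caPI3Kalpha TAC. Psmg1 changed by 0.06 (SE 0.17) in WT and -0.05 (SE 0.22) in caPI3Kalpha hearts.

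Without the set term, genes that work around the particle gave few calls. In WT TAC 0 of 13 partners outside the prefix passed (16.5% of all genes), and 12 had positive changes (71.8% of all genes). With the set term 5 of the 13 were called higher, against 33.1% of all genes. Pomp, the chaperone that carries beta subunits into the core, was at 36.7, 35.9, 37.5 and 35.0 RPKM in WT sham 6, 7, 13 and 15 and at 39.2, 49.2 and 43.9 RPKM in WT TAC 1, 17 and 19. In caPI3Kalpha hearts it was at 37.3 and 39.9 RPKM after sham and at 47.7 and 48.1 RPKM after TAC. As with Psmd8, all TAC hearts were above all sham hearts in both genotypes. In WT hearts Pomp was the only 1 of the 13 partners above without overlap, against 18.9% of all genes. In caPI3Kalpha hearts 7 of the 13 were above without overlap, against 22.4% of all genes, and 1 was below, against 20%. The log2 changes of Pomp were 0.27 (SE 0.10; adjusted p 0.0936, limma) and 0.31 (SE 0.13), and with the set term the adjusted p in WT was 0.0105. Adrm1, a ubiquitin receptor of the cap, was at 7.7 to 10.0 RPKM in the second set and 18.2 to 22.4 RPKM in the first.

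Of 9 transcription factors and activating enzymes of subunit genes, 2 rose in WT TAC, a share near the 16.5% of all genes called. With the set term 6 of the 9 were called higher, against 33.1% of all genes, and 1 lower, against 9.01%. Nfya, the sequence-binding subunit of NF-Y, was at 3.1, 3.1, 4.0 and 3.1 RPKM in WT sham 6, 7, 13 and 15 and at 5.2, 6.9 and 5.7 RPKM in WT TAC 1, 17 and 19. In caPI3Kalpha TAC 11 and 211 it was at 2.9 and 3.1 RPKM, below all WT TAC hearts. It rose by 0.75 (SE 0.14; adjusted p 0.0047, limma) in WT and was lower in caPI3Kalpha TAC than in WT TAC by a log2 difference of -0.87 (adjusted p 0.0189, limma). That lower level lost its call with 4 of the 11 libraries left out in turn (caPI3Kalpha TAC 11 or 211, or WT TAC 17 or 19), with adjusted p-values up to 0.166. Stat3 rose by 0.45 (SE 0.12; adjusted p 0.0255, limma), a call that was lost with any 1 of 5 WT hearts left out, with adjusted p-values up to 0.0893. Nfe2l1, which encodes NRF1, the factor that restores subunit mRNA when the proteasome is blocked, was high, at 80 to 116.6 RPKM over the 11 libraries, and changed by 0.20 (SE 0.10; adjusted p 0.202, limma).

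Among the genes that feed the proteasome, 0 of 6 ubiquitin and E1 genes passed in WT TAC, and 0 of 10 muscle ubiquitin ligases. With the set term 2 of the 6 were called higher, against 33.1% of all genes, and 1 of the 10 lower, against 9.01%. Ubb alone of the 6 had WT TAC (180.1 to 194.6 RPKM) above WT sham (131.2 to 170.5 RPKM) without overlap, against 18.9% of all genes. It was at 155.2 and 183.1 RPKM in caPI3Kalpha sham and at 199.7 and 224.9 RPKM in caPI3Kalpha TAC. Fbxo32 and Trim63, the atrogin-1 and MuRF1 ligases of muscle wasting, changed by -0.06 (SE 0.20) and -0.08 (SE 0.13). Of 9 genes of the p97 unfolding machine and its adaptors 2 rose, a share near the 16.5% of all genes called: Ubxn4 by 0.60 (SE 0.12) and Faf2 by 0.51 (SE 0.14), with adjusted p-values of 0.00673 and 0.0276 in limma. Faf2 lost its call with any 1 of 4 WT hearts left out in turn. Ubxn4 was at 8.1 to 9.2 RPKM in the 4 WT sham hearts, at 11.2 to 15.0 RPKM in the 3 WT TAC hearts and at 8.6 to 9.4 RPKM in all 4 caPI3Kalpha hearts.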

How the data were processed

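Per the labels' protocols, poly-A RNA of 11 left ventricles was sequenced as single-end reads. The authors deposited RPKM to 1 decimal; the submitters' processing notes list CASAVA 1.6, Bowtie, Partek 6.5 and the mm9 build without their roles. Depth is unknown, because single reads leave no visible steps in the low values, and no count test was run. The small RNA table was not used. Of 9251 lines, 261 blank, 1 error and 2 repeated lines were left out, leaving 8987 genes; 0 had a mean under the minimum of 1 RPKM.

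The members, lists and tests were chosen with earlier results of these data known. R 4.3.3 with limma 3.58.1 (lmFit, eBayes with trend) was run on log2(RPKM + 0.5) with 4 groups and no covariate. Fold changes on this scale understate the change of low genes. Intervals are at 95% and use the moderated degrees of freedom. Tests were two-sided and adjusted over all genes. They were checked on simulated data with independent noise and no library sets, so that check does not cover the gap between the sets. Groups are without overlap where every library of one exceeds every library of the other. The p-values measure the spread between single hearts within groups. Without the set term, that spread includes the gap between the library sets within the WT groups. For Psmc6 in WT TAC against WT sham the SE was 0.23 without the set term and 0.071 with it. Genes named with values were those closest to or past the threshold, the extremes of each comparison and a fixed set (the active subunits, activators, Pomp and Nfe2l1 among others). Psmd3, Psmg3, Adrm1 and Ubb are named for the library sets, as a partner or for groups without overlap, after their values were seen. Promoter windows are RefSeq, GRCm38.p6. Alternatives were other pseudocounts and filters, quantile normalization, median centring, fits of the groups compared or of one set alone, a set term and leaving out each library.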

Additional observations from a re-analysis of the deposited data

Results flagged for a closer look

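In the group of 4 WT sham hearts, 2 of the 45 genes had 1 heart set apart from the other three by more than Dixon's limit at 95%. Chance alone flags about 1 in 20 groups, and 45 genes were tested. Psmd11 was at 18.9 RPKM in WT sham 15 and at 16.0 to 16.3 RPKM in the others, with a gap of 0.897 of the group's range. Psmd12 was at 29.1 RPKM in WT sham 6 and at 38.0 to 38.3 RPKM in the others, with a gap of 0.967 of the range. WT sham 6 is the only sham heart of WT mice in the first library set, and Psmd12 is among the 10 genes that are lower in that set in every library.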

How the results depend on the processing

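No paired analysis was possible because the mRNA groups share no animal number. In WT TAC against WT sham the count of 0 genes past the threshold became 2 with libraries centred on their medians (Psme1 and Psmg2, lower), 9 with the set term and 5 in the second set alone, and ran from 0 to 3 with 1 library left out, 3 being without WT TAC 1 (Psmd5, Psmd7, Psme2) and 1 without WT sham 6 (Psmd9). It ran from 0 to 7 for caPI3Kalpha sham against WT sham and from 0 to 9 for caPI3Kalpha TAC against WT TAC, the highest being without WT sham 6 and WT TAC 1. The count of genes with WT TAC above WT sham without overlap, 1, was 0 under quantile normalization and under median centring, 20 in the second set (45.5% of all genes) and 17 without WT TAC 1 (36.4%); these were added after the data were seen.

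Quantile normalization and centring moved the median log2 change of all genes in WT TAC from 0.17 to -0.03 and -0.02, and that of the 45 genes from 0.09 to -0.054 and -0.10. For caPI3Kalpha sham against WT sham the median became 0.033 with the set term. For caPI3Kalpha TAC against WT TAC, where it was -0.00, it was 0.078 under quantile normalization, 0.16 under centring, 0.079 with the set term and 0.094 in the first set, and ran from -0.057 to 0.014 with 1 library left out. Psmc6 became 0.033 (caPI3Kalpha sham) and 0.037 (caPI3Kalpha TAC against WT TAC) with the set term and 0.077 in the first set, and Psmd13 in WT was -0.023 in the first set. The cause was not tested. The interaction cannot be fitted within fewer groups, and the second set holds no caPI3Kalpha heart. Values to 1 decimal limit genes near 2 RPKM.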

Other observations

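For comparison with another route of protein breakdown, 5 of 11 lysosomal cathepsin genes rose in WT TAC, where 16.5% of all genes were called: Ctsk by 1.64 (SE 0.19), Ctss by 1.57 (SE 0.15), Ctsz by 1.31 (SE 0.22), Ctsc by 0.94 (SE 0.15) and Ctsb by 0.32 (SE 0.10), all on the log2 scale in limma. Between caPI3Kalpha TAC and WT TAC 4 of the 11 were lower in the caPI3Kalpha hearts, where 519 of all 8987 genes were called lower: Ctss, Ctsc, Ctsk and Ctsb. The rise of Ctsb was lost with any 1 of the 11 libraries left out in turn, with limma adjusted p-values up to 0.136, and its lower level in caPI3Kalpha TAC was lost with 9 of them and that of Ctsk with 8. Ctss is also on the list of macrophage markers. With the set term 9 of the 11 cathepsin genes were called higher in WT TAC, against 33.1% of all genes. In caPI3Kalpha TAC against WT TAC 6 of the 11 were then called lower, where 696 of all genes were. Of 78 cytosolic ribosomal protein genes, which build the particle for protein synthesis, 1 rose and 1 fell in WT TAC. Of all 8987 genes 1225 rose and 256 fell. With the set term 18 of the 78 were called higher and 1 lower, against 33.1% and 9.01% of all genes. The median log2 change of the ribosomal genes was 0.16, against 0.17 over all genes. In caPI3Kalpha TAC against caPI3Kalpha sham the median of the ribosomal genes was 0.05, against 0.01 over all genes. There 6 of 78 were above without overlap, against 22.4% of all genes.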
